A study of Arabidopsis thaliana with 16 samples.

Results

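An old and a fresh jasmonate treatment were set against each other in rosette leaves of Arabidopsis thaliana Col-0: 4 libraries from plants sprayed with jasmonic acid (JA) only as seedlings, 3 weeks before, and 4 from plants sprayed with JA only 4 h before harvest. These 8 libraries were taken by their treatment labels out of 16, and every gene of the deposited count tables was read. Plants were sprayed at 2 weeks and again at 5 weeks of age. The old-treatment group, JA_W, had 1 mM JA and then water, while the fresh-treatment group, W_JA, had water and then 0.1 mM JA. A water-only group, W_W (4 libraries), served as the common reference. The group given JA at both ages (JA_JA, 4 libraries) was not compared. It entered the gene filter, the scaling, the shared estimate of spread and the principal components. A surfactant (Silwet L-77, 0.02%) was in every spray, and water sprays held the ethanol of the matching JA solution. All plants were wild type and 5 weeks old at harvest. Each library was made from 8 pooled leaves of 2 plants, and the 4 libraries of a group are named as biological replicates. JA_W and W_JA thus differed in both sprays and in the JA concentration as well as in the time since JA, and these cannot be told apart.

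JA is a lipid-derived hormone made in chloroplasts and peroxisomes from linolenic acid after wounding or herbivory. Its isoleucine conjugate joins the receptor COI1 to JAZ repressors, which are then degraded and free MYC and other transcription factors. MYC factors drive defences against chewing insects, such as glucosinolates and anti-digestive proteins, together with the JAZ repressors and the enzymes that remove JA-Ile. Salicylic acid (SA) governs defence against biotrophic pathogens, and each hormone is known to dampen the other's outputs.

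The deposited tables list 34262 genes with 32190193 to 34319939 counted reads per library, so that 1 read is about 0.0298 CPM (reads scaled to a common library total) in the 8 libraries. Levels are CPM scaled further by TMM, a normalization for RNA composition, and are given as mean ± SD (n = 4), and log2 differences carry their SE. Calling required a Benjamini-Hochberg adjusted p under 0.05 in the edgeR quasi-likelihood test over 19224 genes. JA_W replicate 1 stood apart from its group: on the first principal component of all 16 libraries (56.1% of the variance) it lay at 44.1, and the other 3 JA_W libraries at 70 to 82.7. The W_JA libraries lay in 2 pairs, replicates 1 and 3 at -34.1 and -26.5 and replicates 2 and 4 at -57.3 and -52.6. A W_JA mean can thus lie between 2 levels. Nuclear photosynthesis genes were abundant in all 8 libraries (RBCS1A, a Rubisco small subunit, at 16417 ± 2067 CPM in W_JA and 22721 ± 1946 in JA_W). None of the 6 phloem and xylem markers was called between JA_W and W_JA (2 higher in JA_W under upper-quartile scaling and in a fit of the 2 groups alone). Of 4 guard cell markers 1 (FMA) was higher in JA_W and 1 (KAT1) in W_JA, and both calls were lost without JA_W replicate 1, as by library totals.

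Old and fresh treatment left leaves with widely different transcriptomes. Between JA_W and W_JA 11533 genes were called (60% of those tested), 5703 higher in JA_W (29.7%) and 5830 higher in W_JA (30.3%). With a fold over 2 as well, 1369 genes were higher in JA_W (7.12%) and 2273 in W_JA (11.8%). All 4 JA_W libraries lay above all 4 of W_JA for 5040 genes (26.2%) and below them for 5203 (27.1%). Without JA_W replicate 1 the counts were 5566 higher and 5905 lower. Under upper-quartile scaling, which moves the median of all genes by 0.11 on the log2 scale, 6843 were higher and 4929 lower (58.1% of the calls higher, in place of 49.4%). Against the shared W_W libraries, JA_W had 6497 genes higher (33.8%) and 5974 lower (31.1%), and W_JA had 2674 higher (13.9%) and 2473 lower (12.9%). With a fold over 2 these were 8.15% and 13.4% for JA_W, and 3.68% and 3.95% for W_JA. Both comparisons use the same 4 W_W libraries, so their values are given side by side only. Scaled by library totals alone, W_JA had 1683 genes higher and 3763 lower (30.9% of the calls higher, in place of 52%), with the median of all genes moved by 0.12 downward. In bulk leaf RNA, fewer cells of a type and less RNA per cell cannot be told apart.

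Most of the large differences between the treatments came with the old treatment lying farther from W_W. Of the 1369 genes more than 2-fold higher in JA_W, 1047 (76.5%) had JA_W farther from W_W, with median log2 differences from W_W of 1.17 in JA_W and -0.14 in W_JA. The other 322 (23.5%) had W_JA farther, at a median of -1.03 in W_JA and 0.39 in JA_W. Of the 2273 genes more than 2-fold higher in W_JA, 1780 (78.3%) had JA_W farther, at medians of -2.06 in JA_W and -0.26 in W_JA. The other 493 (21.7%) had W_JA farther, at medians of 1.80 in W_JA and -0.12 in JA_W. Genes higher in W_JA were thus mostly genes low after the old treatment.

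**Figure D1:**
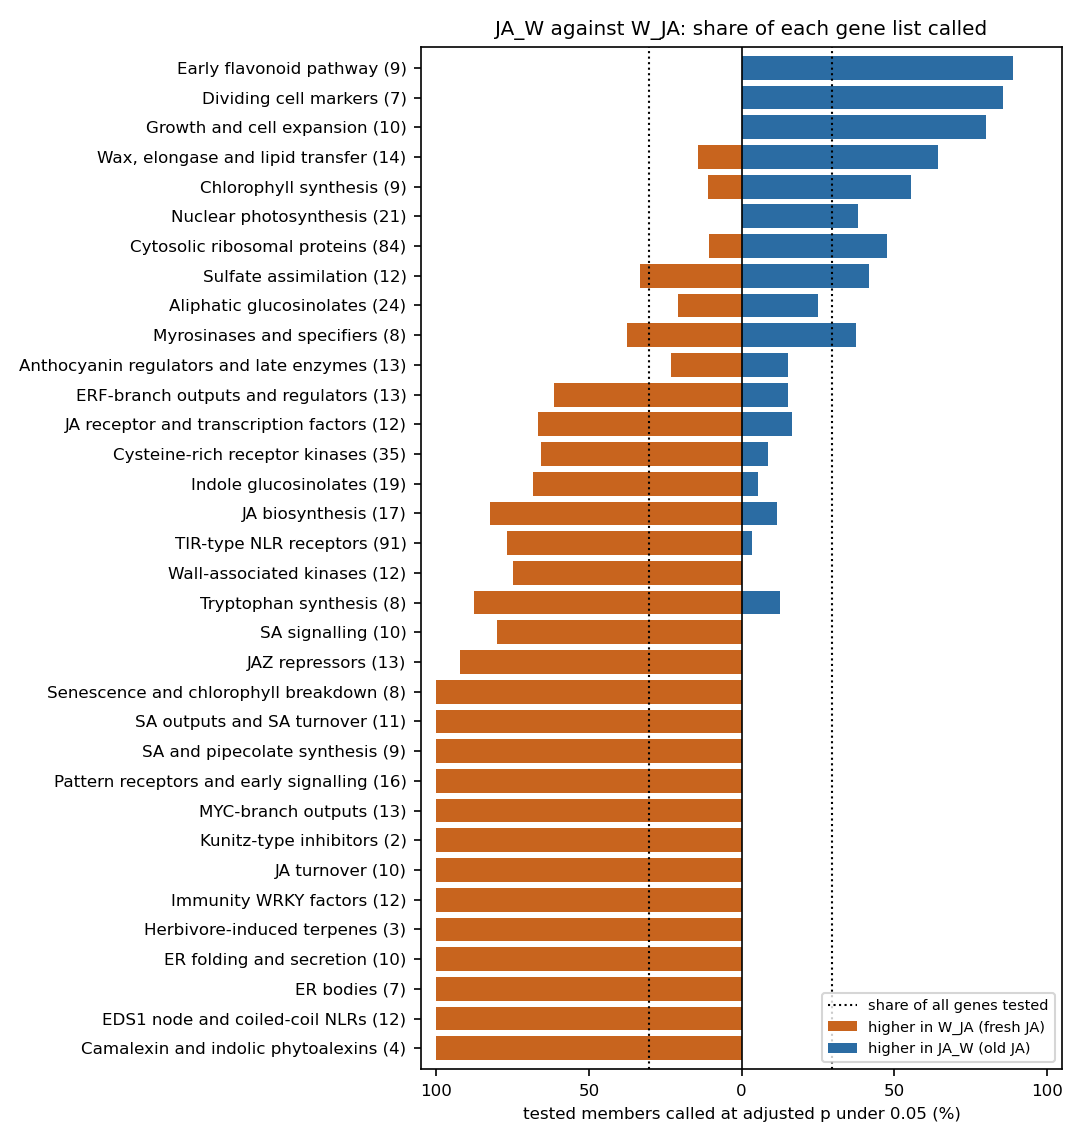
Share of the tested members of 34 gene lists (number tested in brackets) called between JA_W and W_JA, in percent of members, to the right where JA_W was higher and to the left where W_JA was higher; dotted lines mark 29.7% and 30.3% of all genes tested. Every tested member of JA turnover (10), ER bodies (7), SA outputs (11) and immunity WRKY factors (12) was higher in W_JA, while early flavonoid (8 of 9), dividing cell (6 of 7) and growth genes (8 of 10) lay on the other side.

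Genes that remove active JA marked the fresh spray. All 10 tested genes of JA turnover were higher in W_JA, with a median log2 difference of -6.02 for JA_W minus W_JA against 0.01 over all genes tested. Against W_W, all 10 rose in W_JA, while in JA_W 5 were lower and 1 higher. JRG21 (AT3G55970, chr3:20766735-20769410), one of the 2-oxoglutarate-dependent oxygenases that hydroxylate JA, stood at 151, 324, 286 and 411 CPM in W_JA and at 0.83, 0.269, 0.564 and 0.243 in JA_W. The mean was 615-fold higher in W_JA (log2 -9.24 ± 0.53, adjusted p = 8.6e-09), and JA_W also lay below W_W at 2.3 ± 0.987. Its relative AT2G38240, annotated as an enzyme of the same superfamily, had 138 to 212 CPM in W_JA and 0.303 to 0.498 in JA_W (433-fold). CYP94B3, which oxidises JA-Ile, had 15.8 to 40.1 CPM in W_JA and 0.138, 0, 0.0594 and 0 in JA_W (a log2 difference of -10.22 without JA_W replicate 1, whose 5 reads were most of the 7). In all 3 genes every W_JA library was above every JA_W library, as for 27.1% of all genes tested. They were named for large differences, so this is a description.

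The JAZ repressors followed, with 12 of 13 higher in W_JA (median -1.53). In W_JA 11 were above W_W and none below, and in JA_W 4 were above and 1, JAZ7, below (3 below without JA_W replicate 1 and 2 by library totals only). JAZ10, which feeds back on JA signalling, measured 16.9, 31.6, 16.9 and 30.9 CPM in W_JA and 1.3, 0.658, 0.742 and 0.455 in JA_W. Its log2 difference was -4.91 ± 0.35 (adjusted p = 4.22e-08), and JA_W did not differ detectably from W_W at 1.02 ± 0.436 (adjusted p = 0.459). JAZ5 had 21.3 to 58.3 CPM in W_JA, and 2.06 to 7.28 in JA_W. JAZ7 was lower in JA_W than in W_W, at 0.0872 ± 0.0511 against 0.434 ± 0.224 CPM, and 45.8-fold higher in W_JA (4 ± 1.84). The libraries of JA_W and W_JA did not overlap in any of these 3 genes, which were named for large differences or as a marker. Over all genes tested 27.1% had every JA_W library below every W_JA library.

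JA synthesis genes were high after the fresh spray, while after the old one they lay on both sides of water much as all genes tested did. Of 17 tested genes 14 were higher in W_JA and 2 in JA_W (median -1.62). In W_JA 13 were above W_W, and in JA_W 7 were above and 6 below. Over all genes tested 33.8% were above and 31.1% below W_W in JA_W, so those JA_W counts were near the general shares. LOX2 (AT3G45140, chr3:16525245-16529352), the lipoxygenase that starts the pathway in the chloroplast, had 20064, 19413, 19621 and 22388 CPM in W_JA and 4248, 3731, 3517 and 4116 in JA_W. W_W had 2098 ± 532, so both treatments lay above water (log2 3.28 ± 0.18 fresh and 0.90 ± 0.17 old, adjusted p = 0.000215 for the latter). AOC1, an allene oxide cyclase, was at 929.5 ± 30 CPM in W_JA, 82 ± 22.9 in W_W, and 203, 99.8, 110.3 and 111 in JA_W, where replicate 1 was the high one. Its paralog AOC3 was lower than water after the old treatment, at 2.12 ± 1.17 CPM in JA_W against 10.2 ± 3.2 in W_W and 19.9 ± 7.82 in W_JA, and reads may be split among the AOC copies. The desaturases FAD7 and FAD8, which supply linolenic acid, were the pair higher in JA_W, at log2 0.32 ± 0.12 (adjusted p = 0.0308) and 1.13 ± 0.16. Only 1 of them was called without W_JA replicate 1, 3 or 4 or JA_W replicate 2, 3 or 4.

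Among the JA receptor and its transcription factors 8 of 12 were higher in W_JA and 2 in JA_W (median -0.55). The largest differences were in NAC factors that act below MYC2. NAC019 had 16.7, 44.7, 24.7 and 44.9 CPM in W_JA against 2.21, 0.717, 0.802 and 1.09 in JA_W (log2 -4.75 ± 0.48, adjusted p = 1.73e-06), and W_W lay between them at 3.24 ± 0.914. RD26 had 21.1 to 46.1 and 5.11 to 8.16 CPM. NAC3 (AT3G15500) had 193 reads over the W_JA libraries and 2 over JA_W, a ratio of 99.1 (95% counting interval 27.1 to 824; fitted log2 -6.29, or -8.61 without JA_W replicate 2). MYC4 and NIG1 (AT5G46830, annotated as a calcium-binding transcription factor) were higher in JA_W. MYC2 itself is listed with 0 reads in all 16 libraries and was not tested. Whether its reads were counted is not known here, so the 0 is not read as absence of the transcript.

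Outputs of the MYC branch, 12 of 13 above water after the fresh spray, were divided after the old one into genes above and genes below water. All 13 tested outputs were higher in W_JA (median -7.82), 12 of them also above W_W. In JA_W 6 were above W_W and 6 below, with a median of 0.95 that became -0.04 without JA_W replicate 1 and -2.56 in a fit of the 2 groups alone. Over all genes tested 33.8% were above W_W in JA_W and 31.1% below. VSP2 (AT5G24770, chr5:8500468-8502224), a vegetative storage protein with acid phosphatase activity, had 2516, 2770.0, 3289.7 and 2364 CPM in W_JA and 150.1, 147, 97.8 and 109 in JA_W. W_W had 3.69 ± 1.27, so JA_W lay 5.09 ± 0.27 log2 units above water (adjusted p = 2.2e-09) and 4.44 ± 0.25 below the fresh spray. VSP1 is a close copy, and its reads may be split with VSP2. LAS1, a lanosterol synthase, was below water in JA_W: 30.2 to 78.8 CPM in W_JA, 5.3 ± 1.91 in W_W and 0.0277 to 0.119 in JA_W (726-fold between the treatments). TPS04, the geranyllinalool synthase of herbivore-induced volatiles, had 73.6, 332, 71.2 and 144 CPM in W_JA, 6.8 ± 3.82 in W_W and 0.498, 0.0598, 0.0594 and 0.121 in JA_W. Its log2 difference of -9.65 ± 0.91 became -10.86 without JA_W replicate 1 and -8.96 without W_JA replicate 2. ARD3, an enzyme of methionine salvage, was the output not called in W_JA against W_W (adjusted p = 0.0576). It had 8.4, 36.4, 7.26 and 25.3 CPM in W_JA, 50 ± 27.4 in W_W and 3 reads in all of JA_W (fitted log2 between the treatments -9.56, or -10.49 without JA_W replicate 3). W_JA replicates 2 and 4 were the higher ones, as in the SA genes below.

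The ER bodies, stress compartments of Brassicaceae loaded with beta-glucosidases, separated the treatments in every tested gene. All 7 were higher in W_JA than in JA_W and than in W_W, while JA_W had 2 above and 2 below W_W (1 above without JA_W replicate 1, W_W replicate 2 or W_W replicate 3, and in a fit of the 2 groups alone). The JA_W counts against W_W were near the shares of all genes tested, 33.8% above and 31.1% below. NAI2, needed to form ER bodies, had 72.5, 62.7, 83.5 and 76.3 CPM in W_JA and 2.13, 1.17, 1.01 and 0.971 in JA_W (log2 -5.79 ± 0.23, adjusted p = 5.09e-11). PYK10, the beta-glucosidase of the constitutive bodies of roots and seedlings, had 1767 reads over W_JA, 2 over JA_W and none over W_W, a W_JA to JA_W ratio of 907 (counting interval 251 to 7497). PBP1, a lectin that binds PYK10, had 137 to 208 CPM in W_JA and 1.22 to 2.15 in JA_W.

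The tested terpene and protease inhibitor genes also had their highest means after the fresh spray. All 3 tested genes of herbivore-induced terpenes were higher in W_JA. CYP82G1, which makes the homoterpene volatile, had 30.8 to 63 CPM in W_JA and 0.209 to 1.41 in JA_W (80.5-fold; log2 -6.29, or -7.26 without JA_W replicate 1), against 2.61 ± 0.904 in W_W. TPS03, an ocimene synthase, was above water in both: 14.1 ± 4.32 CPM in W_JA, 4.52 ± 0.968 in JA_W and 1.2 ± 0.676 in W_W. Of the Kunitz-type inhibitors, AT1G73325 had 72.6, 97.2, 78.7 and 92.8 CPM in W_JA, 0.139 ± 0.0957 in W_W and 15.9, 5.05, 3.71 and 4.49 in JA_W. The gene was above W_W in JA_W (log2 5.70 ± 0.60, adjusted p = 1.62e-06). Its log2 difference between the treatments was -3.54, or -4.27 without JA_W replicate 1. KTI1 had 0, 9.52, 8.14 and 2.99 CPM in W_JA and 1 read in all of JA_W, so the groups overlapped (fitted log2 -8.87, or -10.44 without JA_W replicate 1). Only these 2 inhibitors were tested, and both were called above W_W in W_JA. That count became 1 with DESeq2, without the low-count filter, with a replicate block and in a fit of the 2 groups alone. It was also 1 without W_W replicate 2, 3 or 4 or W_JA replicate 2 or 3. Between the treatments the 2 calls became 1 in a fit of the 2 groups alone.

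The upstream sequences of 3 genes in this acute set are shown because each holds the G-box CACGTG, the core motif bound by MYC factors. They cover the 250 bases before the annotated start of JAZ7 (chr2:14572780-14573029, plus strand), RAP2.6 (chr1:16263555-16263804, plus) and NAC019 (chr1:19698483-19698732, minus), in TAIR10.1 coordinates of the RefSeq reference, with the G-box in capitals.
JAZ7: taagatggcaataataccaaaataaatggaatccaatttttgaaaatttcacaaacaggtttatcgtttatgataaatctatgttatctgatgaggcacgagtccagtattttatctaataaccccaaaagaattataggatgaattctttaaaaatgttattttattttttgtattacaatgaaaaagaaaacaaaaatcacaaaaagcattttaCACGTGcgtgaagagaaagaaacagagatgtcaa
RAP2.6: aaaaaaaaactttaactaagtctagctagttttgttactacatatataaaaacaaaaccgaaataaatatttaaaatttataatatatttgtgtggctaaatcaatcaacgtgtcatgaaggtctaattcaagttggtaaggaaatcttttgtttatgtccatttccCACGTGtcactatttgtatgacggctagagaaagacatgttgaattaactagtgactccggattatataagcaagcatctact
NAC019: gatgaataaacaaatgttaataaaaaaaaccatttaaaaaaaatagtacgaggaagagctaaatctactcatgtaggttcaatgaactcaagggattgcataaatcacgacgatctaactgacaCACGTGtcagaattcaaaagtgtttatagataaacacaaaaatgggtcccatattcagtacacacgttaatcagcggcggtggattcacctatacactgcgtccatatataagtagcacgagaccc
The motif starts at -34, -83 and -126 from the gene start. RAP2.6, an AP2/ERF transcription factor, was among the 8 largest differences on the W_JA side, with 17.9, 19.6, 30.1 and 25.4 CPM in W_JA and 4 reads over JA_W (791-fold). In windows from 250 bases before to 50 after the start, searched on both strands, the G-box was in 16.8% (80 of 477) of genes over 2-fold higher in W_JA with W_JA farther from W_W. It was in 9.17% of those with JA_W farther, near the 8.95% of all genes tested, and in 7.68% of all protein-coding genes. These gene groups were chosen by the measured difference, so the shares are a description. A match is a run of letters, not a binding site.

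**Figure D2:**
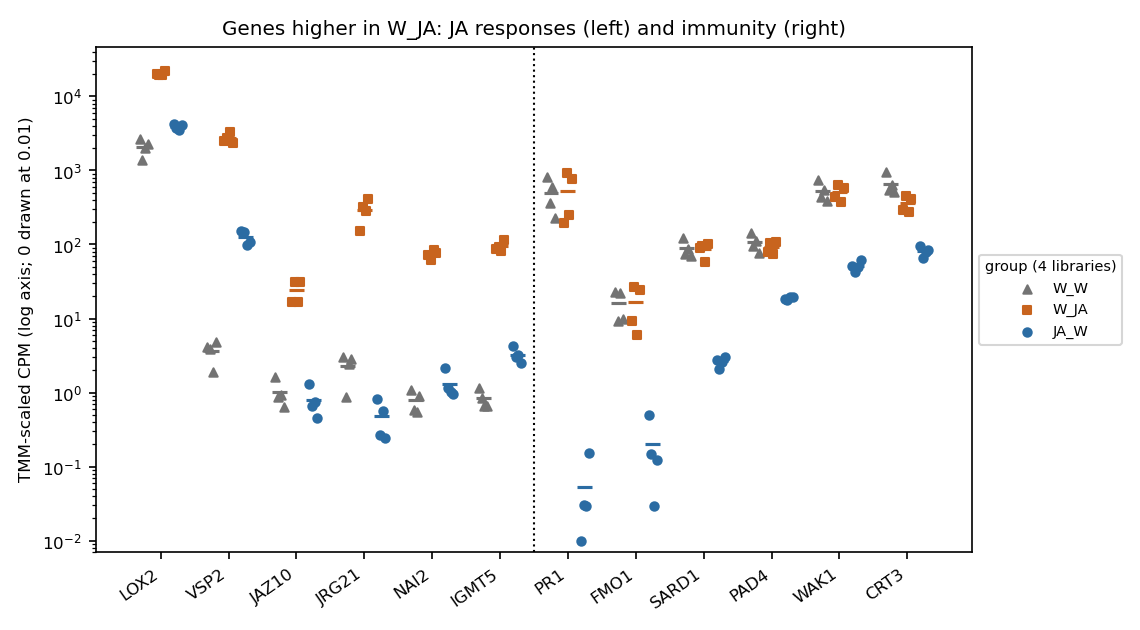
TMM-scaled CPM on a log axis for 12 genes higher in W_JA than in JA_W, in the 4 libraries of W_W, W_JA and JA_W; points are libraries, short lines are means, and 0 reads are drawn at 0.01. In the 6 JA-response genes on the left every W_JA library lies above all others, while in the 6 immunity genes on the right every JA_W library lies below every W_JA and W_W library, from a mean of 530 to 0.0528 CPM for PR1 and of 360.2 to 81.3 for CRT3. Of all genes tested 27.1% had every JA_W library below every W_JA library, and the share against W_W was not computed. These 12 genes were named for large differences or as markers, so the separation is a description.

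Transcripts of SA outputs marked the old treatment by their low level. All 11 tested SA outputs were higher in W_JA than in JA_W (median -4.32). All 11 were lower in JA_W than in W_W, whereas W_JA had 1 above and 1 below. The call above was lost without W_W replicate 2, 3 or 4 or W_JA replicate 2 or 4 and became 2 without W_JA replicate 1, and the 1 below became 3 with DESeq2 or in a fit of the 2 groups alone and 2 without W_W replicate 4 or W_JA replicate 2. PR1 (AT2G14610, chr2:6241640-6242541), the usual marker of SA responses, had 196, 917, 249 and 757 CPM in W_JA and 0, 0.0299, 0.0297 and 0.152 in JA_W. W_W had 500.4 ± 256, and W_JA did not differ from it detectably (adjusted p = 0.933). The log2 difference was -13.23 ± 1.06 (adjusted p = 2.24e-07), and -14.49 without JA_W replicate 4, which held 5 of the 7 JA_W reads. BGL2, a beta-1,3-glucanase also called PR2, had 1869 to 5361 CPM in W_JA and 16.1 to 27.7 in JA_W (158-fold), and was the output called above W_W in W_JA. AT4G10500, an oxygenase listed under SA turnover, had 52.1 to 287 CPM in W_JA and 0.329 to 1.34 in JA_W (log2 -7.50, or -6.91 without W_JA replicate 2). In PR1, BGL2 and AT4G10500, W_JA replicates 2 and 4 were higher than replicates 1 and 3. All their W_JA libraries were above all JA_W libraries, as for 27.1% of all genes tested. These genes were named for large differences or as a marker.

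Genes that make SA and its partner signal pipecolate were also low after the old treatment. All 9 were higher in W_JA (median -3.33), 8 were below W_W in JA_W, and in W_JA 2 were above and 1 below. The 2 became 1 without W_W replicate 2 or W_JA replicate 2, and the call below was lost without W_W replicate 1, 2 or 3 or W_JA replicate 1 or 3 and became 2 without W_W replicate 4. ALD1 and FMO1 make N-hydroxypipecolate, the mobile signal of systemic resistance. FMO1 had 9.26, 26.5, 6.08 and 24.4 CPM in W_JA and 0.498, 0.149, 0.0297 and 0.121 in JA_W (log2 -6.31 ± 0.72, adjusted p = 4.8e-06; -7.32 without JA_W replicate 1). ALD1 had 50.3 ± 32.5 CPM in W_JA and 0.337 ± 0.289 in JA_W (log2 -7.18, or -7.95 without JA_W replicate 1). SARD1, a transcription factor that switches on SA synthesis, had 89.1, 96.9, 58.8 and 102 CPM in W_JA, 88.3 ± 24.2 in W_W and 2.79, 2.06, 2.61 and 3.03 in JA_W. EDS16, the isochorismate synthase, had 73.1 ± 14.5 CPM in W_JA and 18.6 ± 1.59 in JA_W.

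In SA signalling 8 of 10 genes were higher in W_JA (median -0.89), and W_JA too was below water in part of the list: 9 were below W_W in JA_W and 5 in W_JA. NIMIN1, an inhibitor of the SA receptor NPR1, fell in steps from 10.8 ± 1.07 CPM in W_W to 2.74 ± 0.626 in W_JA and 0.162 ± 0.0803 in JA_W. NIMIN-2 had 24.2 ± 6.06, 7.02 ± 1.9 and 0.506 ± 0.114 CPM in the same order. The receptor NPR3 had 32.8 to 38.4 CPM in W_JA and 9.48 to 10.8 in JA_W (log2 -1.82 ± 0.12, adjusted p = 6.41e-09). All 12 immunity WRKY transcription factors were higher in W_JA (median -3.09). All 12 were below W_W in JA_W and 7 in W_JA. WRKY38 had 6.32, 7.57, 5.9 and 6.4 CPM in W_JA and 0.166, 0.0598, 0.119 and 0.364 in JA_W, against 16 ± 2.34 in W_W. WRKY62 had 774 reads over W_JA and 4 over JA_W.

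Receptors of the immune system were lower after the old treatment across classes. All 12 tested genes of the EDS1 node and the coiled-coil NLRs were higher in W_JA (median -1.58). All 12 were below W_W in JA_W and 2, RIN4 and SAG101, in W_JA (1 without W_W replicate 1, 2 or 3 or W_JA replicate 1). PAD4, the partner of EDS1, had 79.9, 104, 74.8 and 107 CPM in W_JA and 18.5, 17.9, 19.6 and 19.8 in JA_W, against 107 ± 27.5 in W_W. EDS1 had 47.8 ± 5.29 CPM in W_JA and 12.1 ± 2.01 in JA_W. Its neighbour AT3G48080, annotated in the same hydrolase superfamily, had 17.4 ± 2.58 and 0.795 ± 0.491, and reads may be split between these close copies. RPS2, like MYC2, is listed with 0 reads in all libraries and was not tested, which is not read as absence. Of the 91 tested TIR-type receptor genes, 70 were higher in W_JA and 3 in JA_W (1 without W_JA replicate 2, JA_W replicate 2 or JA_W replicate 4; median -0.69), and 76 were below W_W in JA_W and 22 in W_JA (13 without W_W replicate 1). AT5G45000, of the TIR-NBS-LRR class, had 5.87 to 8.53 CPM in W_JA and 0.269 to 0.819 in JA_W.

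Cell surface receptors were lower in JA_W too. All 16 pattern receptors and early signalling genes were higher in W_JA (median -1.09); 14 were below W_W in JA_W and 7 in W_JA. SOBIR1, the shared kinase of receptor-like proteins, had 239, 374, 178 and 329.9 CPM in W_JA and 36.1, 28.1, 36.5 and 37 in JA_W (log2 -3.03 ± 0.30, adjusted p = 8.66e-07). RLP23, which senses nlp20 peptides through SOBIR1, had 92.1 to 188 CPM in W_JA and 6.73 to 15.6 in JA_W. LYK5, a chitin receptor, had 26.6 to 37.7 and 5.49 to 7.74 CPM. PEPR1 and PEPR2, receptors of the wound peptides called Peps, were the pair above W_W in W_JA. PEPR1's call above W_W in JA_W (log2 0.24 ± 0.10, adjusted p = 0.0488) was lost without replicate 2, 3 or 4 of W_W or of JA_W and in 6 further settings, DESeq2 among them. Of 35 cysteine-rich receptor kinases 23 were higher in W_JA and 3 in JA_W (median -1.14), and of 12 wall-associated kinases 9 were higher in W_JA (median -1.57). Against W_W, JA_W had 30 of the cysteine-rich kinases lower and 2 higher. W_JA had 14 of them lower and none higher (up to 2 with 1 library left out). WAK1, which binds pectin, had 436, 628, 379 and 573 CPM in W_JA, 526 ± 158 in W_W and 51.8, 43, 49.2 and 61.1 in JA_W. CRK7 had 61.4 ± 23.9 CPM in W_JA and 2.04 ± 1.03 in JA_W.

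Upstream sequences of 2 of these receptor genes are shown because each holds TTGACC, a form of the W-box bound by WRKY factors, in capitals (GGTCAA where it lies on the other strand). They are the 250 bases before the annotated start of RLP23 (chr2:13862615-13862864, minus strand) and WAKL10 (chr1:29982820-29983069, minus), from the same reference.
RLP23: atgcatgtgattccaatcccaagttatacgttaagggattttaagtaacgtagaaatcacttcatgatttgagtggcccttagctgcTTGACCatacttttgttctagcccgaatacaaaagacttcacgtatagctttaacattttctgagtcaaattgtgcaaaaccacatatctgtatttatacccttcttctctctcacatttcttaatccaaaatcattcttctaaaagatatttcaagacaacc
WAKL10: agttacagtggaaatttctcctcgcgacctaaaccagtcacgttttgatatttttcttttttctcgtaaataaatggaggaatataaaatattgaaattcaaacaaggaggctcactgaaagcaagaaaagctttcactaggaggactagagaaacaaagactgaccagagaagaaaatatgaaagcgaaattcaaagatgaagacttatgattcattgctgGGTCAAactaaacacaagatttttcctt
The box starts at -163 and -28. WAKL10, a kinase of the WAK family, had 7.47, 14.8, 5.44 and 6.8 CPM in W_JA and 1.55, 0.389, 0.267 and 0.789 in JA_W (log2 -3.50, or -4.16 without JA_W replicate 1). Only this form of the W-box was searched for and marked, so the shares do not cover other forms. It was in 20.9% (365 of 1745) of genes over 2-fold higher in W_JA with JA_W farther from W_W. Of those with W_JA farther it was in 10.9%. It was in 14.4% of all genes tested and in 14.2% of all protein-coding genes. In the 32 genes of SA synthesis, SA outputs and WRKY factors with a window it was in 6.25%. The GCC-box, bound by ERF factors, was in 2.35% and 2.52% of the genes with JA_W and with W_JA farther and in 2.66% of all genes tested.

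Secretory chaperones and camalexin genes were likewise low after the old treatment. All 10 genes of ER folding and secretion were higher in W_JA (median -1.89), all 10 were below W_W in JA_W, and 2 in W_JA (7 without W_W replicate 4, 5 without W_JA replicate 2, 1 without W_W replicate 1 or W_JA replicate 1, and 4 with DESeq2 or by library totals). BIP3, the stress-induced ER chaperone, had 14.3, 41.6, 16.5 and 34.3 CPM in W_JA and 0.609, 0.538, 1.19 and 1.94 in JA_W, against 78.1 ± 39.7 in W_W. CRT3, a calreticulin that folds the receptor EFR, had 277 to 452 and 65.5 to 96.5 CPM. All 4 tested camalexin genes were higher in W_JA, with PAD3, the last enzyme of camalexin synthesis, at 63.1, 147, 42.8 and 73.4 CPM in W_JA and 24.7, 3.29, 4.48 and 4.86 in JA_W. JA_W replicate 1 was the high library, and the log2 difference of -3.12 ± 0.70 (adjusted p = 0.00141) became -4.28 without it. PAD3 had 210.5 ± 29.3 CPM in W_W. Against W_W all 4 camalexin genes were lower in JA_W, and 2 were lower in W_JA too (1 to 3 in other settings), at a median of -1.42. CYP71A12, among these 2, had 23.9 ± 2.49 CPM in W_W and 8.63 ± 3.48 in W_JA, and its W_JA and JA_W libraries overlapped. All 8 senescence and chlorophyll breakdown genes were higher in W_JA (median -1.58), 7 of them below W_W in JA_W, and 3 rose in W_JA. SAG13, an early senescence marker, had 75.4 to 292 CPM in W_JA and 53.7, 11.7, 15.2 and 15 in JA_W, with a log2 difference of -2.89 ± 0.60 and of -3.67 without JA_W replicate 1.

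The ERF branch of JA signalling, which acts with ethylene against necrotrophs, was below water in most genes after the old treatment. Of 13 tested genes 8 were higher in W_JA and 2 in JA_W (median -2.32), and 11 were below W_W in JA_W and 5 in W_JA, where 3 were above (1 without W_W replicate 2, W_W replicate 3 or W_JA replicate 3). ORA59, its leading factor, had 0.319, 0.0901, 0.514 and 0.142 CPM in W_JA and 1.25, 1.08, 1.01 and 1.09 in JA_W, against 3.25 ± 0.837 in W_W. The fresh spray thus left it lower than the old one (log2 2.05 ± 0.45, adjusted p = 0.000911). PDF1.2, the defensin marker of the branch, had 4.66, 5.73, 8.26 and 2.62 CPM in W_JA and 0.111, 0.269, 0.208 and 0.394 in JA_W (log2 -4.43 ± 0.62). Defensin genes are close copies, and reads may be split among them. THI2.1, a thionin induced by JA, had 1.69 to 2.81 CPM in W_JA and 0 to 0.179 in JA_W (log2 -4.74, or -5.60 without JA_W replicate 2).

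**Figure D3:**
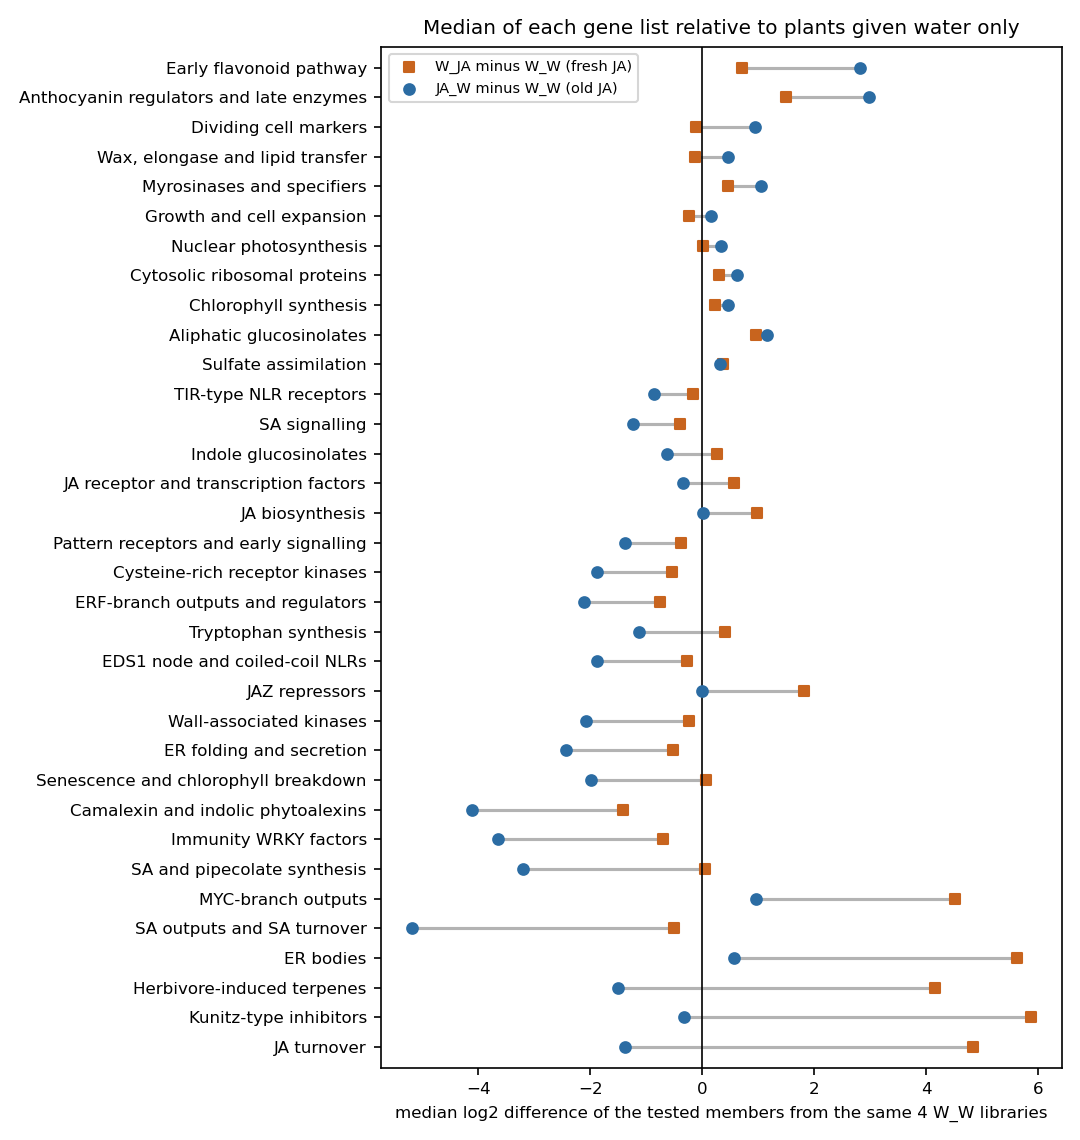
Median log2 difference from the 4 W_W libraries of the tested members of 34 gene lists, for W_JA (squares) and JA_W (circles). Both share W_W, so the pairs are shown side by side only: SA outputs lie at -0.50 and -5.18, JA turnover at 4.84 and -1.38, and aliphatic glucosinolates at 0.95 and 1.16.

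Aliphatic glucosinolates, the methionine-derived mustard oil glycosides, were above water after both treatments. Against W_W 20 of 24 genes were higher in JA_W and 18 in W_JA. Between the treatments 6 were higher in JA_W and 5 in W_JA (median 0.18), both smaller shares than among all genes tested. The 5 became 3 without W_JA replicate 1, JA_W replicate 2 or JA_W replicate 4 and under upper-quartile scaling. MYB28, the main regulator, had 106, 76.1, 84.5 and 79.7 CPM in W_JA and 126, 152, 140.4 and 126 in JA_W (log2 0.65 ± 0.22, adjusted p = 0.0177; 0.59 and 0.051 without W_JA replicate 2). CYP79F1, which starts core synthesis, had 231 ± 43.2 CPM in W_JA and 259 ± 39.3 in JA_W against 106 ± 33.5 in W_W. IMS2, a chain-elongation synthase, was the exception, and fell to 4.41 ± 1.68 CPM in JA_W from 12.3 ± 2.74 in W_W and stood at 23.8 ± 8.46 in W_JA. FMO GS-OX2 and FMO GS-OX4, which oxidise side chains, were also on the W_JA side, 2.31-fold and 2.25-fold higher in W_JA.

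Indole glucosinolates, made from tryptophan, did separate the treatments. Of 19 tested genes 13 were higher in W_JA and 1 in JA_W (median -0.83), a call lost in 6 of the 8 fits without a library of either treatment. In JA_W 3 were above and 11 below W_W, and in W_JA 7 above and 6 below. IGMT5, a methyltransferase that makes 1-methoxyindolyl glucosinolate, had 85.6, 93.4, 81 and 116 CPM in W_JA, 0.837 ± 0.238 in W_W and 4.32, 3.02, 3.21 and 2.49 in JA_W (log2 -4.85 ± 0.20, adjusted p = 4.66e-11). CYP81F4, the hydroxylase of the same step, had 272 reads over W_JA and none in JA_W or W_W, at least 93.1-fold higher against 3 reads over the group. MYB122, one of the indole regulators, had 66 reads over W_JA and none in JA_W, at least 22.6-fold higher, and was highest in W_W with 124. CYP79B2, which makes the shared precursor, had 112 ± 36.9 CPM in W_JA and 55.6 ± 11.6 in JA_W (log2 -1.01 ± 0.22). Tryptophan synthesis followed with 7 of 8 genes higher in W_JA. TSA1 had 196 ± 16.7 CPM in W_JA, 151 ± 14.8 in W_W and 47.6 ± 2.75 in JA_W, and TRP1 had 272 ± 28, 128 ± 20.2 and 67.9 ± 3.23. The IGMT genes are close copies among which reads may be split.

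Of 8 myrosinases and proteins that steer their products, 3 were higher in each group. This was near the shares of all genes tested, 29.7% higher in JA_W and 30.3% in W_JA. ESM1, which favours isothiocyanates over nitriles, had 1365, 906, 838 and 699.8 CPM in W_JA and 2634, 3760.5, 3655 and 3897 in JA_W (log2 1.87 ± 0.25, adjusted p = 9.74e-06). The myrosinase TGG1 had 1819 ± 116 CPM in W_JA, 1707 ± 121 in W_W and 3359.9 ± 331 in JA_W. NSP1, a nitrile specifier, was on the other side, with 283, 302, 239 and 289 CPM in W_JA, 6.16 ± 0.556 in W_W and 12.9, 13.4, 12.6 and 14 in JA_W. In sulfate assimilation, which feeds glucosinolates, 5 of 12 genes were higher in JA_W and 4 in W_JA, not far from the same shares. LSU1, a low-sulfur response gene, had 4.83 ± 2.03 CPM in W_JA and 0.619 ± 0.166 in JA_W, and the root-type transporter SULTR1;2 had 4.7 ± 1.19 and 1.09 ± 0.36.

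Early flavonoid genes stood highest after the old spray. Of 9 tested genes of the early pathway, 8 were higher in JA_W than in W_JA and none lower (median 1.06). Against W_W 7 rose in JA_W and 4 in W_JA. 4CL3, a coenzyme A ligase at the entry to flavonoids, had 1.76, 1.95, 2.48 and 1.31 CPM in W_JA and 11.3, 16.2, 12 and 14.9 in JA_W (log2 2.86 ± 0.31, adjusted p = 1.51e-06). The flavonol regulators MYB111 and MYB11 had 1.02 ± 0.177 and 1.58 ± 0.269 CPM in JA_W against 0.16 ± 0.0932 and 0.173 ± 0.168 in W_JA. MYB11's difference of 3.16 ± 0.45 became 4.08 without W_JA replicate 3. TT4, chalcone synthase, had 56.4 to 81 CPM in W_JA, 99.2 to 189 in JA_W and 7.15 ± 2.98 in W_W. Anthocyanin regulators and late enzymes gave 2 of 13 higher in JA_W and 3 in W_JA, while 8 in JA_W and 7 in W_JA were above W_W (4 and 3 in fits of the 2 groups alone). The 2 became 1 without W_JA replicate 2, W_JA replicate 4 or JA_W replicate 3. PAP1, the regulator of anthocyanins, had 36.1 ± 8.14 and 39 ± 10.4 CPM in JA_W and W_JA against 3.42 ± 0.841 in W_W, a difference between treatments that was not called (log2 -0.11 ± 0.21). EGL3, its bHLH partner, had 0.114 to 0.287 CPM in W_JA and 1.45 to 1.88 in JA_W, and MYBL2, a repressor, was 1.9-fold higher in W_JA.

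Genes annotated to lipid enzyme or lipid transfer families stood near the top of the JA_W side. AT1G06360, a fatty acid desaturase family gene (chr1:1938862-1940496), led it with 1.6, 3.89, 3.24 and 4.31 CPM in JA_W and 0.0639, 0.03, 0.0605 and 0 in W_JA. AT2G38995, annotated as a WSD1-like acyltransferase, had 2.85 to 6.34 and 0.06 to 0.287 CPM, and the lipid transfer protein LTP6 had 0.885 to 2.03 and 0.0569 to 0.121. AT4G28780, a GDSL lipase, had 16, 46.7, 39 and 49.4 CPM in JA_W, 11.8 ± 4.56 in W_W and 3.64, 2.61, 2.24 and 0.967 in W_JA. AT1G06360, AT2G38995 and AT4G28780 were called above W_W in JA_W and below it in W_JA. Of 14 wax, elongase and lipid transfer genes 9 were higher in JA_W and 2 in W_JA (median 0.67). CER1, which makes wax alkanes, had 122, 199.9, 183 and 246 CPM in JA_W, 53.8 ± 28.4 in W_W and 17.4, 16, 47.6 and 23.8 in W_JA (log2 2.84 ± 0.49, adjusted p = 0.000173). WSD1, a wax ester synthase, had 7.03 ± 1.54 CPM in JA_W and 0.77 ± 0.784 in W_JA, with a log2 difference of 3.18 ± 0.48 and of 4.19 without W_JA replicate 3. LTP4, one of the pair higher in W_JA, had 12.5 CPM in W_JA replicate 3 and was not called without that library (log2 -0.13, adjusted p = 0.884), nor without JA_W replicate 1, 3 or 4. Without JA_W replicate 3 neither of the pair was called.

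The other genes at the top of the JA_W side were of mixed kinds. GER3 (chr5:6975029-6976036), a germin-like protein of the cell wall, had 36.9, 40, 53.2 and 78.7 CPM in JA_W, 13.6 ± 5.66 in W_W and 3.42, 1.95, 3.18 and 2.22 in W_JA (log2 4.28 ± 0.44, adjusted p = 2.19e-06). NUDT24, a nudix hydrolase, had 1.88, 9.6, 5.88 and 4.4 CPM in JA_W and 0.171 to 0.393 in W_JA. AT1G10640, a pectin lyase-like gene, was low in W_JA: JA_W at 2.36 ± 0.892 did not differ detectably from W_W at 1.56 ± 0.611, and W_JA stood at 0.107 ± 0.0439. AT5G62210, annotated as embryo-specific protein 3, had 0.498 to 2.34 CPM in JA_W and 0 to 0.121 in W_JA. At the other end, MSRB7 (chr4:11584346-11585542), a methionine sulfoxide reductase, had 9.77, 68.7, 16.6 and 26.8 CPM in W_JA and no read in JA_W, at least 1398-fold higher (fitted log2 -13.01, or -12.23 without W_JA replicate 2). AT2G44240, with a DUF239 domain, had 0.926 to 5.77 CPM in W_JA, 3.04 ± 0.795 in W_W and no read in JA_W (at least 145-fold). DXPS1, a synthase of the plastid isoprenoid pathway, had 0.351, 7.3, 1.54 and 2.11 CPM in W_JA and no read in JA_W (at least 129.7-fold; fitted log2 -9.58, or -8.51 without W_JA replicate 2).

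**Figure D4:**
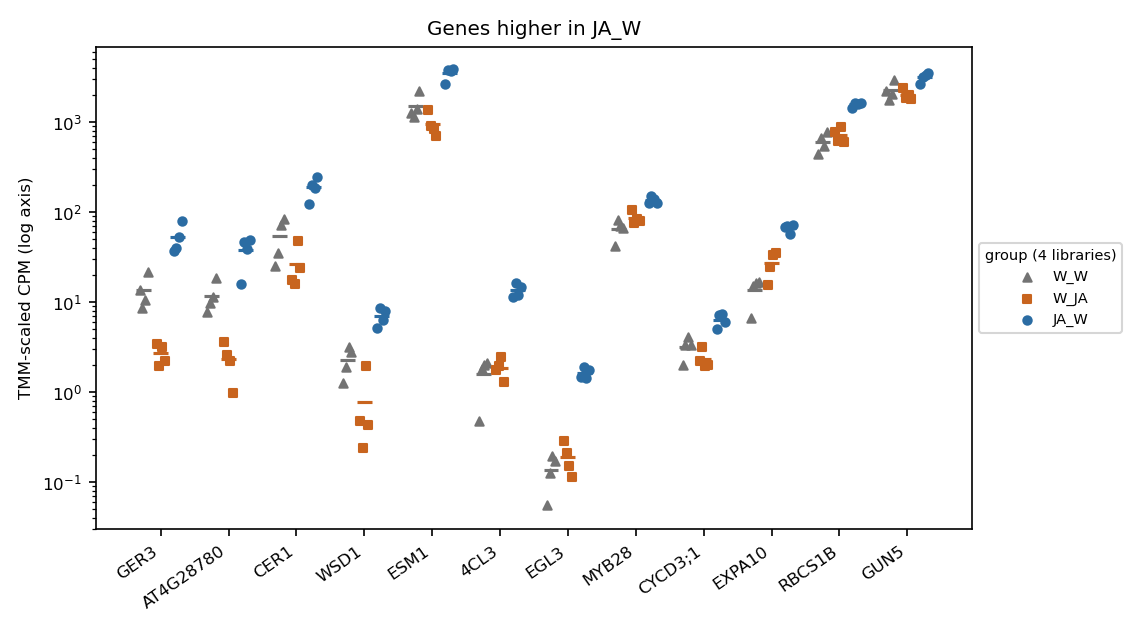
TMM-scaled CPM on a log axis for 12 genes higher in JA_W than in W_JA, in the 4 libraries of W_W, W_JA and JA_W; points are libraries and short lines are means. JA_W is the top group for all 12, and W_JA lies below W_W for GER3 (2.69 against 13.6) and AT4G28780 (2.36 against 11.8).

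Where called, growth, cell division and photosynthesis genes were mostly higher in JA_W, but most photosynthesis genes were not called. Of 10 growth genes 8 were higher in JA_W (median 1.19), but against W_W JA_W had 3 higher and 2 lower, and W_JA 1 higher and 4 lower. Without W_W replicate 4 the 3, 2 and 1 became 5, 1 and 3, and the 2 became 1 without W_W replicate 1 or JA_W replicate 1, 2 or 4 as well. EXPA10, a wall-loosening expansin, had 68.5, 69.3, 57.4 and 71.8 CPM in JA_W, 15.5, 24.5, 33.2 and 35 in W_JA and 13.7 ± 4.69 in W_W. The auxin response genes IAA19 and IAA29 were below water in both groups. IAA19 had 3.64 ± 0.516 CPM in W_W, 2.07 ± 0.214 in JA_W and 0.597 ± 0.183 in W_JA, and IAA29 had 3.19 ± 1.2, 1.79 ± 0.236 and 0.301 ± 0.256 (log2 between the treatments 2.58, or 3.20 without W_JA replicate 1). Of 7 dividing cell markers 6 were higher in JA_W (median 1.21) and 5 above W_W there, with none called in W_JA against W_W (1 lower without W_W replicate 1). CYCD3;1, a cyclin that drives entry into the cell cycle, had 5.01, 7.23, 7.3 and 5.95 CPM in JA_W and 2.2, 3.15, 1.97 and 2.02 in W_JA (log2 1.45 ± 0.23, adjusted p = 5.5e-05). CDKB1;1 had 0.553 to 0.623 CPM in JA_W and 0.16 to 0.313 in W_JA. The part of dividing cells in the growth gene values was not tested.

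Among 21 nuclear photosynthesis genes 8 were higher in JA_W and none in W_JA (median 0.33), and none was called in W_JA against W_W. JA_W had 8 above W_W (17 without W_W replicate 4, and 5 without W_W replicate 2 or 3). In each of these comparisons 13 genes were not called in JA_W. Both counts of 8 were near the shares of all genes tested, 29.7% higher in JA_W than in W_JA and 33.8% above W_W. The first 8 became 14 without W_JA replicate 1 and under upper-quartile scaling, and 6 to 11 without any other single library. RBCS1B, a minor Rubisco small subunit, had 1424, 1632, 1589.7 and 1622 CPM in JA_W and 766, 620.2, 878 and 594 in W_JA (log2 1.13 ± 0.16, adjusted p = 2.1e-05). RBCS2B and RBCS3B, with nearly the same sequence, were 1.64-fold and 1.53-fold higher in JA_W, and reads may be split among these copies. Of 9 chlorophyll synthesis genes 5 were higher in JA_W and 1 in W_JA. GUN5, the large subunit of magnesium chelatase, had 3151 ± 356 CPM in JA_W and 2008 ± 258 in W_JA, and POR C had 466 ± 76.5 and 288 ± 51.7. PORA, the enzyme of etiolated seedlings, had 2.56 ± 0.713 CPM in JA_W, 0.685 ± 0.257 in W_JA and 3.93 ± 1.09 in W_W. Of 84 cytosolic ribosomal protein genes 40 were higher in JA_W and 9 in W_JA (median 0.25), with 65 above W_W in JA_W and 38 in W_JA (17 by library totals only). The 40 became 29 to 43 with 1 library left out (33 without JA_W replicate 1) and 32 to 52 in the other settings.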

How the data were processed

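Raw read counts per gene and the CPM of the same counts were deposited for each library, per the file headers. The submitters' processing notes name HTSeq 0.9.1, Trimmomatic 0.38, the build TAIR10 and STAR 2.6.1b but no settings, and whether counting used strand is not given in the sources used here, so reads of overlapping antisense genes cannot be told apart. Libraries were poly(A) RNA sequenced as single-end reads, per the labels' protocols. The deposited CPM served only to check the counts (largest deviation 5.09e-11).

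Counts were filtered with filterByExpr (at least 10 reads, 15 in total), scaled by TMM and fitted with edgeR 4.0.16 (quasi-likelihood, robust) in R 4.3.3, with a mean per group over all 16 libraries and 12 residual degrees of freedom. Of 34262 genes 15038 were removed. P-values were adjusted by Benjamini-Hochberg over 19224 genes. A fold is the ratio of mean CPM. Against 0 reads it is a lower bound set at 3 reads over the group, and against 1 to 3 reads a count ratio with a Poisson interval, which covers counting error only. Distance from W_W used log2(CPM + 0.1). The code was tested on simulated data.

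Gene names, positions and upstream sequences came from RefSeq (TAIR10.1), which matched 32548 identifiers. Named genes were the 8 largest differences in each direction among called genes with at least 1 CPM and no overlap, up to 3 called genes per list with the largest difference, and 10 markers. Genes named beside these were chosen after their values were seen. Members and 53 gene lists were chosen with earlier results of these data known, and no list was tested as a set. Of 484 genes listed by locus 451 were tested. Alternatives were DESeq2 1.42.0, 3 other scalings, 2 other filters, a fit on the 2 groups compared, a replicate block and leaving out each library.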

Additional observations from a re-analysis of the deposited data

Results flagged for a closer look

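Among 118 named genes, 354 groups of 4 libraries were checked for 1 library far from the other 3, by the gap to its neighbour as a share of the group's range, against Dixon's 95% critical value. This gave 31 cases, 8.76% of the groups. Chance gives about 5% for independent values with a normal spread, which these CPM were not shown to be. A group with reads in 1 library only is always flagged, so the share is a description. JA_W replicate 1, which also lay apart on the first principal component, was the highest library in 12 of the 31 cases and the lowest in 1. What set that library apart was not tested. A check for 1 library far from the other 3 cannot show a split such as that of W_JA replicates 1 and 3 from 2 and 4.

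JA_W replicate 1 was high for TPS04 (0.859), KTI1 (1.000), AT1G73325 (0.890), SAG13 (0.916), CYP71A12 (0.867), CYP71A13 (0.935), NAI2 (0.832), AOC1 (0.887), AOC3 (0.892), PAD3 (0.927), RD26 (0.846) and AT5G18350 (1.000), and low for RBCS2B (0.855). JA_W replicate 2 was high for NAC3 (1.000), IAA19 (0.885) and TPS02 (1.000) and low for SOBIR1 (0.892). JA_W replicate 3 was high for PDF1.3 (1.000) and PDF1.2c (1.000). A share of 1.000 means that the other 3 libraries had no read.

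W_JA replicate 3 was high for MYB11 (0.861), WSD1 (0.859) and LTP4 (0.923), and W_JA replicate 1 for PBP1 (0.920). In W_W, replicate 1 was high for JAZ5 (0.858), WAKL10 (0.849) and RLP23 (0.908) and low for AT1G06360 (0.870) and EXPA10 (0.835). W_W replicate 4 was high for RBCS2B (0.905) and low for PAD3 (0.840) and UF3GT (0.917).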

How the results depend on the processing

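No named gene changed sign with a call on either side under the alternatives run, but list medians did. Against W_W, the JA_W median of MYC-branch outputs (0.95) became -2.56 in a fit of the 2 groups alone and -0.04 without JA_W replicate 1, and that of Kunitz-type inhibitors (-0.33) 0.26 without W_W replicate 1. Of the lists in the report, medians within 0.07 of 0 also changed sign in some settings: JA synthesis in JA_W, SA synthesis, senescence and photosynthesis in W_JA against W_W, and sulfate assimilation between the treatments. With a fold over 2, the counts were 1369 higher and 2273 lower in JA_W against W_JA, 1566 and 2573 in JA_W against W_W, and 707 and 759 in W_JA against W_W. Scaled by library totals only, W_JA against W_W gave 1683 higher and 3763 lower. Of genes higher in JA_W, the share with JA_W farther from W_W was 84.1% over all called genes and 70.4% by library totals, where that of genes higher in W_JA was 80.9%. Leaving out single libraries gave 5149 to 5829 higher and 5393 to 5905 lower between the treatments, 6034 to 6474 and 5565 to 6066 for JA_W against W_W, and 2169 to 2842 and 1997 to 2617 for W_JA against W_W. Replicate numbers did not pair JA_W with W_JA (correlations of deviations -0.29, -0.16, 0.036 and -0.16), and a replicate block gave 5555 higher and 5675 lower; 6332 and 5876; and 2485 and 2264 in the same order. With at least 1 CPM required in 4 libraries, genes higher in W_JA in the ERF branch went from 8 to 5, and dividing cell markers higher in JA_W from 6 to 3, since fewer genes were tested. Between the treatments 3 named genes lost their call in some setting (AT5G40040, LTP4 and MYB28). At this depth, genes with few reads in a group have folds set by the floor.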

Other observations

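Among genes called between the treatments, those of ethylene and abscisic acid were mostly higher in W_JA. Over all genes tested 29.7% were higher in JA_W and 30.3% in W_JA. The 6 of 15 clock genes higher in W_JA were near the latter share. The 9 of 25 genes of DNA methylation and small RNA higher in JA_W were near the former. Of 15 circadian clock genes 2, PRR9 and CCA1, were higher in JA_W (1 without replicate 1 or 2 of W_JA or replicate 2 or 3 of JA_W) and 6 in W_JA, and 9 were above W_W in W_JA and 5 in JA_W. Of 12 ethylene genes 8 were higher in W_JA and 1, the ACC oxidase ACO1, in JA_W, and 10 were below W_W in JA_W. Of 9 abscisic acid genes 6, including the receptors PYL4, PYL5 and PYL6, were higher in W_JA and none in JA_W (1 without W_JA replicate 2 and under upper-quartile scaling). Among 25 genes of DNA methylation and small RNA 9 were higher in JA_W, the methyltransferases MET1, CMT2 and CMT3 among them, and 2, the demethylases DML2 and DME, in W_JA. These genes were named after their values were seen.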
